A study of Mus musculus with 6 samples.

Results

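The NEDD4-type HECT ubiquitin ligases are a family of 9 genes in the mouse: Nedd4, Nedd4l, Itch, Wwp1, Wwp2, Smurf1, Smurf2, Hecw1 and Hecw2. They were taken by symbol from a table of 57010 genes, and all 9 were found in it. Of these, 7 passed the filter on low counts, and Nedd4 and Hecw1 did not. The libraries hold RNA of RAW 264.7 cells, a mouse macrophage line, and every sample had first received lipopolysaccharide, a component of bacterial cell walls that brings on an inflammatory state. Afterwards 3 samples (normoxic-EV) were given extracellular vesicles that tendon stem cells had shed in normoxia, and 3 (hypoxic-EV) were given vesicles from such cells after preconditioning in hypoxia. No vesicle-free cells were analysed here, and each value sets one vesicle treatment against the other, in a single cell line. The sources used here give neither the species of the tendon stem cells nor the vesicle dose. Whether the samples came from separate cultures is not stated, so SD and p-values cover the spread among these 6 libraries alone, and that spread may be technical.

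A ubiquitin ligase is the last enzyme of the cascade that attaches ubiquitin to a protein, after the activating and the conjugating enzymes. HECT ligases carry the ubiquitin on a cysteine of their own before they hand it on, and those of the NEDD4 type add a membrane-binding C2 domain and a row of WW domains, which hold short proline and tyrosine (PY) motifs in substrates and adaptors. In macrophages and other cells the family is known for the turnover of membrane receptors and transporters, of SMAD proteins in TGF-beta and BMP signalling, and of regulators of inflammation and cell survival. Several of its members are held inactive by contacts within the protein until an adaptor binds.

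Library totals ran from 16751665 to 23422328 counts. A pool of 8 macrophage markers summed to between 10388 and 10823 CPM (counts relative to the TMM-scaled library total) in normoxic-EV and between 8424 and 8821 CPM in hypoxic-EV. The sum was mostly Lyz2, which went from 7946 ± 208 to 6091 ± 176 CPM (SD, n = 3). The markers moved both ways: 5 of the 8 were called lower and 2 higher, by edgeR's adjusted p. That is 87.5% called, beside 44.2% of all tested genes. Besides Lyz2, those lower were Adgre1, from 168 ± 4.05 to 96.8 ± 4.71 CPM, Ptprc (597 to 493 CPM), Spi1 (194 to 158 CPM) and Cd14 (947 to 855 CPM). Those higher were Csf1r, from 174 ± 6.93 to 352 ± 13.4 CPM, and Itgam, from 189 ± 6.52 to 211 ± 16.3 CPM, while Cd68 was not called, at 437 ± 18.2 and 423 ± 11.3 CPM. The 9 tendon and stromal markers summed to between 0.897 and 1.81 CPM and between 0.766 and 1.36 CPM, with Tnmd, Col1a2, Col3a1 and Thy1 at 0 counts in each library. The 6 lymphocyte markers summed to between 0.419 and 0.584 CPM in normoxic-EV and between 0.826 and 0.99 CPM in hypoxic-EV, with Cd3e at 0. Only Cd79a among them passed the count filter. It gave 17 counts in the normoxic-EV libraries together and 47 in the hypoxic-EV libraries, and was called higher (edgeR adjusted p = 0.00849). The part of these marker differences, in either direction, in the results below was not tested. In such bulk RNA, fewer cells of a type and less RNA per cell cannot be told apart.

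The start region of Hecw2 is shown because this gene differed most between the groups. The upstream start of Nedd4 is shown as a region about as rich in CpG, from a gene that gave no count at all. Any link between CpG and these levels was not tested. RefSeq start regions on GRCm38.p6 (250 bases before the start and 50 after it) were at hand for 5 of the 9 members, 6 regions in all, since Nedd4 has 2. Both regions below are printed 5′ to 3′ along the gene, with capitals for a match to the NF-kappaB consensus or to the core of the hypoxia response element, ACGTG, on either strand.

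Hecw2, chr1:54194985-54195284, minus strand: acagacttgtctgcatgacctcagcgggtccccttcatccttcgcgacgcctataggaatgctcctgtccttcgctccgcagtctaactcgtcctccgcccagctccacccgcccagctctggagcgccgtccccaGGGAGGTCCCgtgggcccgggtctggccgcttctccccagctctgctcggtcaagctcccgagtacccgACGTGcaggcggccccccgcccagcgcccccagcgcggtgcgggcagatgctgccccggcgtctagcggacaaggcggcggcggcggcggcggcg

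Nedd4, upstream start, chr9:72662081-72662380, plus strand: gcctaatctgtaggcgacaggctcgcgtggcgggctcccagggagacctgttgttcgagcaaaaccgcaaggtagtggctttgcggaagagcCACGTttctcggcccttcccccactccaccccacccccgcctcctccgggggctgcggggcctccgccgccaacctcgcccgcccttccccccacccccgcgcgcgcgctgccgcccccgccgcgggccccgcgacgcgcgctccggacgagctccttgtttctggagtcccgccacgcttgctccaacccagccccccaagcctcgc

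The Hecw2 region held 34 CpG and the upstream Nedd4 region 35, where the median of 32851 RefSeq start regions of this length was 7. Those of Smurf1, Smurf2 and Wwp2 held 49, 43 and 28, and the downstream start of Nedd4 held 13. The NF-kappaB consensus matched Hecw2 on both strands at the same bases and none of the other 5 regions, and 8.46% of all regions hold it. The ACGTG core occurred in Hecw2, the upstream Nedd4 start, Smurf1 and Wwp2, in Wwp2 on both strands with the matches overlapping, and 19.6% of all regions hold it. An AP-1 motif, TGANTCA, was found in the downstream Nedd4 start alone, and in 7.81% of all regions. These matches describe the letters of the windows and not binding. The shares of all regions were not matched for CpG or GC content. The ACGTG core itself contains a CpG, and the regions that held it had between 28 and 49 CpG, beside the median of 7. Smurf2, with 43, did not hold it. The Hecw2 region was 71.7% GC, where the median of all regions was 52.7%. Whether these regions hold any motif more often than regions of like composition was not tested.

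Hecw2 and Nedd4l were lower in macrophages given hypoxic-EV, at 19.5% and 46% of their normoxic-EV levels, while Itch, Wwp1, Smurf1 and Smurf2 were at between 96.3% and 107% of them and Wwp2 was at 88.5%. The family was chosen by its name and by the log2 fold changes of this same comparison, in which Hecw2 was among the largest decreases, so its own values are a description and carry no test. In the fit to all genes, 3 of the 7 filtered members (Hecw2, Nedd4l and Wwp2) fell under an edgeR adjusted p of 0.05, or 42.9%. All were lower. Of the 13303 tested genes, 44.2% were called in either direction and 21.5% lower. Since this comparison was used to choose the family, neither the count nor its direction is a result about the family. No overlap between the groups was seen in 4 of the 7, beside 52.8% of all tested genes. The median log2 fold change of the 7 was -0.05, and that of all tested genes was -0.001.

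Hecw2 encodes a ligase known for stabilising the p53 relative p73, and belongs to the HECW branch of the family. The gene (ENSMUSG00000042807) lies on chromosome 1 from 53846035 to 54234327 in GRCm39, on the minus strand. It gave 332, 329 and 453 counts in normoxic-EV replicates 1 to 3, or 19.9, 19.2 and 20.1 CPM. In hypoxic-EV it gave 57, 83 and 90 counts, or 3.36, 4.24 and 3.87 CPM. Every hypoxic-EV library lay far below every normoxic-EV library, and the spread within a group was small beside the gap. The means were 19.7 ± 0.473 and 3.82 ± 0.438 CPM (SD, n = 3). The log2 fold change was -2.36 (SE 0.111), or 5.13-fold lower. Of the 13303 tested genes, 15 had a lower log2 fold change. The 3 small genes annotated within its bounds, Gm24251, Mir7681 and Gm37633, had 0 counts in each library. In the authors' deposited table of 462 genes, Hecw2 stood 19th from the lowest, with a log2 fold change of -2.36.

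Nedd4l encodes a ligase best known for removing the epithelial sodium channel from the cell surface and for limiting SMAD2 and SMAD3. It lies on chromosome 18 from 65020776 to 65350899. It gave 323, 363 and 465 counts in normoxic-EV, or 19.3, 21.2 and 20.7 CPM, and 153, 176 and 234 counts in hypoxic-EV, or 9.03, 8.98 and 10.1 CPM. The groups did not overlap, and the means of 20.4 ± 0.965 and 9.36 ± 0.615 CPM (SD, n = 3) gave a log2 fold change of -1.12 (SE 0.0925). The 3 noncoding genes across from it had 0 counts. In the authors' deposited table Nedd4l had a log2 fold change of -1.12, and no member of the family other than Hecw2 and Nedd4l appeared there, which lists only genes with an absolute log2 fold change above 1.

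**Figure D1:**
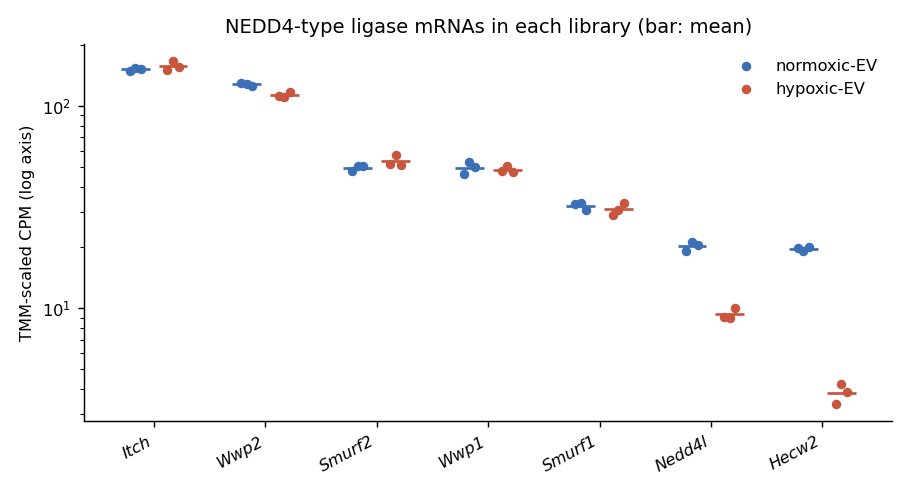
TMM-scaled CPM on a log axis of the 7 members that passed the count filter, with 1 point per library (blue normoxic-EV, red hypoxic-EV) and a bar at the mean of 3. The red points of Hecw2 (3.36 to 4.24 CPM) and Nedd4l (8.98 to 10.1 CPM) lie well below the blue ones. In each of the other genes red and blue lie closer to each other, though without overlap in Wwp2 and Smurf2.

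Itch, Wwp1 and Wwp2 are close relatives. Itch is known for the turnover of JUNB and of the caspase 8 inhibitor c-FLIP, and mice without it develop inflammatory disease. Itch stood at 149, 155 and 152 CPM in normoxic-EV and 151, 167 and 156 CPM in hypoxic-EV. These ranges overlapped, and the log2 fold change was 0.06 with a 95% interval from -0.04 to 0.16. Wwp1, whose substrates include Kruppel-like factors, stood at 46.3, 52.7 and 49.9 CPM and at 47.7, 50.4 and 47.3 CPM. Its hypoxic-EV values all fell inside the normoxic-EV range, with an interval of the log2 fold change from -0.16 to 0.09.

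Wwp2, known to act on the Toll-like receptor adaptor TRIF, had 130, 129 and 126 CPM in normoxic-EV and 112, 111 and 118 CPM in hypoxic-EV. The groups did not overlap, but the difference was small, 1.13-fold lower with a log2 fold change of -0.18 (95% interval -0.27 to -0.08). Rps26-ps1, a transcribed pseudogene on the other strand within Wwp2, had 52 to 94 counts per library, against 1896 to 2842 for Wwp2.

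Smurf1 and Smurf2 target SMAD proteins and the receptors of TGF-beta and BMP, to which SMAD7 brings them, and Smurf1 also acts on the GTPase RHOA. Smurf1 stood at 32.7, 33.2 and 30.7 CPM in normoxic-EV and 28.9, 30.6 and 33.0 CPM in hypoxic-EV, with overlapping ranges and an interval from -0.20 to 0.09 on the log2 scale. Smurf2 stood at 48.0, 50.4 and 50.7 CPM and at 51.8, 57.1 and 51.0 CPM. Its hypoxic-EV libraries were all above the normoxic-EV ones, by a narrow margin, with a log2 fold change of 0.10 and an interval from -0.03 to 0.23. For Itch, Wwp1, Smurf1 and Smurf2 the intervals kept the hypoxic-EV level between 87.0% and 117% of that in normoxic-EV, which does not show that the levels were equal.

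Nedd4, which gave the family its name, had 0 counts in each of the 6 libraries. A count of 0 allows up to between 0.129 and 0.179 CPM per library, counting error only. Of 4 short genes annotated on the same strand within its bounds, 1 had a single count in 1 library. Hecw1, a relative of Hecw2 studied mainly in neurons, had 1 count in the normoxic-EV libraries together and 4 in the hypoxic-EV libraries, so no fold is given.

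Per length, in the authors' FPKM (counts scaled to a fixed length for each gene and to library total), the family's mRNA was mostly Itch and Wwp2. Order and shares between genes depend on these lengths, which are shorter than the gene bounds and were taken as deposited. In normoxic-EV Itch had 15.6 ± 0.328 FPKM and Wwp2 14.5 ± 0.197 FPKM (SD, n = 3). Smurf2 (8.06 ± 0.257 FPKM) and Wwp1 (7.69 ± 0.52 FPKM) came next and overlapped each other. Smurf1 (5.07 FPKM), Hecw2 (1.52 ± 0.0346 FPKM) and Nedd4l (1.05 ± 0.0526 FPKM) followed, each clear of its neighbours. In hypoxic-EV the first 5 kept this order, and no neighbours overlapped among the 7. Per length, Hecw2 and Nedd4l changed places: the ratio of Hecw2 to Nedd4l FPKM was 1.54, 1.36 and 1.46 in normoxic-EV and 0.558, 0.707 and 0.576 in hypoxic-EV. The ratio was above 1 in the 3 normoxic-EV libraries and below 1 in the 3 others. In CPM, which are not scaled to length, they did not change places: Nedd4l had the higher mean in both groups, and in normoxic-EV, at 20.4 ± 0.965 against 19.7 ± 0.473 CPM (SD, n = 3), their ranges overlapped.

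The summed FPKM of the family was 53.5 ± 1.11 with normoxic-EV and 50.8 ± 1.09 with hypoxic-EV (SD over 3 libraries). Itch made up 29.2 ± 0.114% of that sum in normoxic-EV and 32.0 ± 0.721% in hypoxic-EV. Hecw2 made up 2.85 ± 0.113% and 0.579 ± 0.049%, and Nedd4l 1.96 ± 0.0629% and 0.949 ± 0.0672%. The genes with the large fold differences were thus the minor ones of the mRNA pool.

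**Figure D2:**
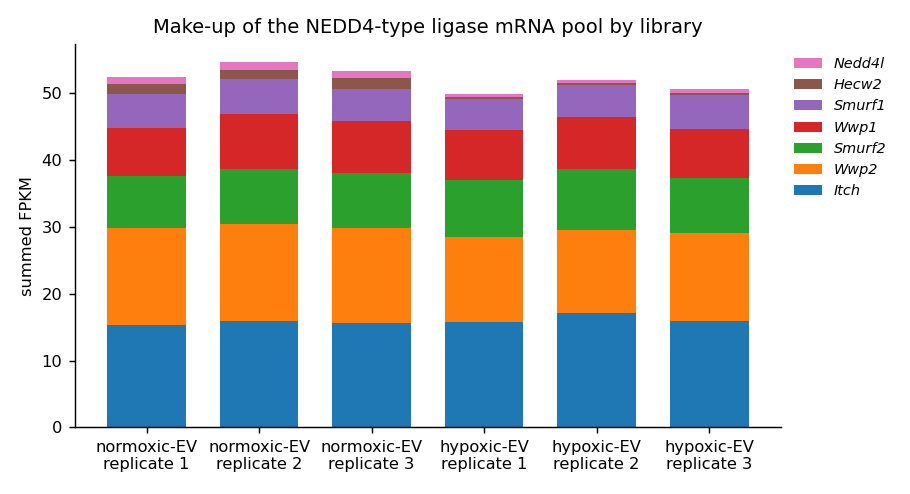
Summed FPKM of the NEDD4-type ligase genes in each library, stacked by gene from Itch at the bottom to Nedd4l at the top. The height changes little between the groups (means 53.5 and 50.8), while the thin Hecw2 band shrinks from 2.85% to 0.579% of the sum.

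Other HECT ligases share the catalytic domain and not the WW domains. Of 17 listed, 16 were tested, and 3 rose and 4 fell past the threshold of an adjusted p of 0.05 in edgeR, or 43.8%, beside 44.2% of all genes. Their log2 fold changes ran from -0.37 to 0.39 with a median of -0.04. The NEDD4-type genes reached further down only through Hecw2 (-2.36) and Nedd4l (-1.12), and their other tested members ran from -0.18 to 0.10. As the NEDD4-type family was chosen by this same comparison, its wider range cannot be set against that of the other HECT ligases. Ube3c, a ligase that works with the proteasome, rose from 138 ± 3.88 to 167 ± 7.84 CPM (SD, n = 3, edgeR adjusted p = 9.05e-05). Herc3 rose from 26.1 ± 0.642 to 34.2 ± 2.28 CPM, and Ube3a, whose loss in neurons causes Angelman syndrome, fell from 154 ± 9.2 to 127 ± 6.67 CPM (edgeR adjusted p = 0.000284). The interferon-induced Herc6 had a log2 fold change of -0.37, and its call ended without normoxic-EV replicate 1 or without hypoxic-EV replicate 1. Herc2 (-0.15) lost its call without normoxic-EV replicate 2 or 3 or hypoxic-EV replicate 3 and with no count filter. Hectd3 (0.21), named after its values were seen, overlapped between the groups. It lost its call in 5 of 11 alternatives, the DESeq2 Wald test among them. Arel1 (-0.17) overlaps Fcf1 on the other strand, at 166% of its own count, so its reads are uncertain.

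**Figure D3:**
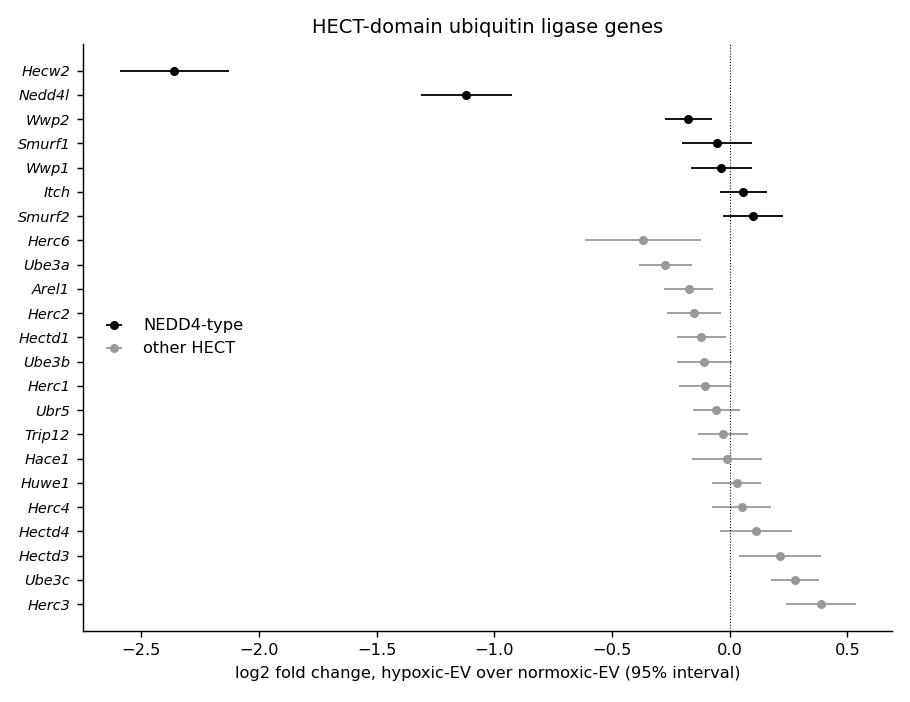
Log2 fold change of hypoxic-EV over normoxic-EV with its 95% interval for 7 NEDD4-type ligases (black) and 16 other HECT ligases (grey), with a dotted line at 0. Hecw2 (-2.36) and Nedd4l (-1.12) stand to the left of the rest, which lie between -0.37 and 0.39.

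Adaptors bring NEDD4-type ligases to their substrates, mostly through PY motifs, or open the ligase for catalysis. Of 25 listed, 21 were tested, and 5 rose and 8 fell, or 61.9% beside 44.2% of all genes. The median log2 fold change was -0.09. This list and the other related lists were drawn up with earlier results of these data known. Their shares beside that of all genes are therefore a description and were not tested. The genes that rose include the inhibitory SMADs and Pmepa1, which are themselves TGF-beta or BMP targets, and those that fell include members of several adaptor families.

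Pmepa1 encodes a membrane protein with PY motifs that binds NEDD4-type ligases and dampens TGF-beta signalling. It stood at 10.1, 10.7 and 10.5 CPM in normoxic-EV and at 45.0, 46.0 and 41.4 CPM in hypoxic-EV, or 4.23-fold higher (edgeR adjusted p = 2.8e-14, SE 0.0778 in log2). Smad7, the adaptor that carries SMURF proteins to the TGF-beta receptor, stood at 8.61, 10.2 and 8.98 CPM and at 18.8, 17.8 and 18.6 CPM. The difference was 0.99 in log2 (edgeR adjusted p = 3.48e-08). Smad6, its counterpart in BMP signalling, stood at 8.14, 6.54 and 6.09 CPM and at 17.4, 14.3 and 14.7 CPM (log2 fold change 1.16, edgeR adjusted p = 9.8e-08). The groups did not overlap in any of these 3 genes.

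The beta-arrestins link ligases of the family to receptors that are being taken up. Arrb1 rose from 21.3 ± 2.0 to 48.4 ± 1.09 CPM (SD, n = 3, 2.28-fold higher, edgeR adjusted p = 2.66e-11). Arrb2 was the more abundant and rose less, from 160 ± 2.23 to 185 ± 4.3 CPM (edgeR adjusted p = 0.000605). Among the alpha-arrestins, adaptors with PY motifs of their own, Arrdc4 fell from 109 ± 1.27 to 57.2 ± 2.86 CPM (log2 fold change -0.93, edgeR adjusted p = 7.81e-12). Txnip, a relative that restrains glucose uptake, fell from 797 ± 29.5 to 648.5 ± 7.2 CPM (log2 fold change -0.30). Arrdc1, Arrdc2 and Arrdc3, named after their values were seen, had log2 fold changes of -0.09, -0.01 and 0.00 and did not pass the test.

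Ndfip1 and Ndfip2 encode membrane adaptors that activate Itch and its relatives. Ndfip2 stood at 128, 132 and 127 CPM in normoxic-EV and 91.3, 97.8 and 98.6 CPM in hypoxic-EV, a fall of 0.43 on the log2 scale (SE 0.049, edgeR adjusted p = 4.3e-07). Ndfip1, named after its values were seen, had a log2 fold change of -0.10 and did not pass (edgeR adjusted p = 0.0801). Laptm4a, a lysosomal membrane protein gene, fell from 510 ± 9.92 to 382 ± 4.84 CPM (SD, n = 3, edgeR adjusted p = 1.2e-07). Wbp2, which encodes a WW-domain binding protein, fell by 0.41 on the log2 scale. Rnf11, which encodes a partner of Itch in the complex that ends NF-kB signalling, fell by 0.30. Amotl1 fell by 0.21. Spg20, the spartin gene, fell by 0.18, a call that ended without normoxic-EV replicate 2 or 3 and with no count filter.

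**Figure D4:**
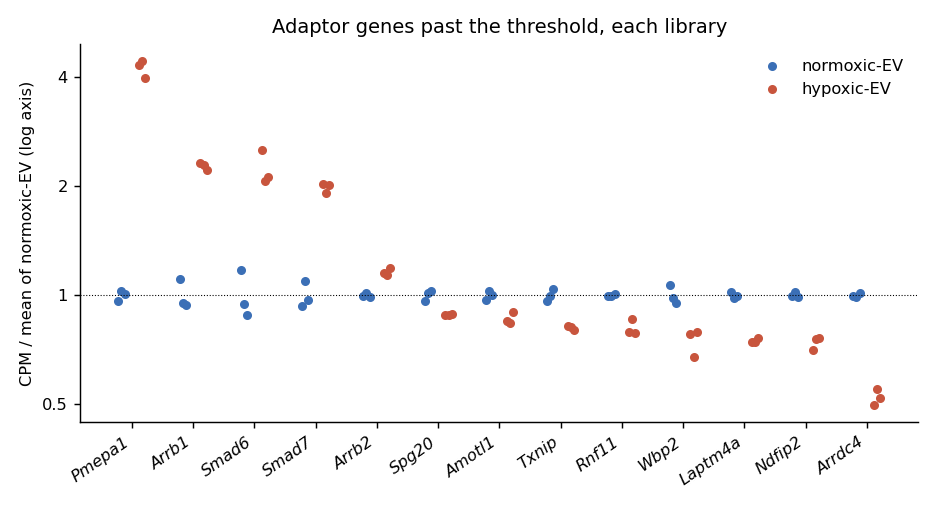
CPM of each library over the normoxic-EV mean on a log axis, for the 13 adaptor genes past the threshold, ordered by fold change. Pmepa1, Arrb1, Smad6 and Smad7 lie near or above a ratio of 2 in hypoxic-EV (red), and Arrdc4 lies near 0.5. No gene shows overlap of the groups, which largely follows from picking them by adjusted p in these same libraries. Of all 21 tested adaptors, 16 had no overlap, beside 52.8% of all tested genes.

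Substrates reported for the family were listed as 38 genes, of which 34 were tested; 12 rose and 9 fell, or 61.8% beside 44.2% of all genes, with a median log2 fold change of -0.01. Between 8 and 13 of them rose when single libraries were left out. This list too was drawn up with earlier results known, so its share beside that of all genes is a description. Smad3, whose protein is a substrate of NEDD4L and SMURF proteins, rose from 14.0 ± 0.968 to 29.5 ± 1.29 CPM (SD, n = 3), by 1.07 in log2 (edgeR adjusted p = 7.18e-10). Cxcr4, the chemokine receptor sorted to lysosomes by Itch, rose 3.81-fold (edgeR adjusted p = 4.23e-13). Tnk2, a kinase gene, rose from 31.7 ± 0.862 to 44.2 ± 5.05 CPM.

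Cflar, which encodes the Itch substrate c-FLIP, fell from 445 ± 3.57 to 228 ± 8.01 CPM (SD, n = 3), with -0.97 as its log2 fold change (edgeR adjusted p = 5.97e-13). Slc11a2, the iron transporter gene whose protein is degraded through NDFIP adaptors, fell by 0.60 on the log2 scale. Map3k2, a kinase gene and Smurf1 substrate, fell by 0.37. Scnn1a, which encodes the sodium channel subunit that Nedd4l is known to remove, was named after its values were seen and stood at 4.13, 3.62 and 4.49 CPM in normoxic-EV and 2.42, 0.664 and 1.33 CPM in hypoxic-EV. It fell 2.85-fold (edgeR adjusted p = 9.24e-05, SE 0.266 in log2), with a wide spread in hypoxic-EV. These are mRNA levels, which say nothing of how much of each protein was ubiquitinated.

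Of 14 genes of ubiquitin and of its activating and conjugating enzymes, 13 were tested. In all 2 rose and 3 fell, or 38.5% beside 44.2% of all genes, with a median log2 fold change of -0.09. Uba1, the main activating enzyme gene, rose from 407 ± 11.5 to 536 ± 7.58 CPM (SD, n = 3), by 0.40 in log2 (edgeR adjusted p = 2.99e-07). Ube2l3, which encodes a conjugating enzyme that serves HECT ligases, fell from 158 ± 5.28 to 127 ± 2.98 CPM (edgeR adjusted p = 1.4e-05). Ube2d1 (0.27) lost its call without normoxic-EV replicate 1 or 3 or hypoxic-EV replicate 2, which left 1 gene higher in place of 2, and Ube2d3 (-0.15) without normoxic-EV replicate 1 or 3 or hypoxic-EV replicate 1. Rps27a, a ubiquitin and ribosomal protein fusion gene at -0.23, has processed pseudogenes that may share its reads, and the DESeq2 Wald test did not call it.

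The list of deubiquitinases and kinases around the ligases held 14 genes, among them Tax1bp1, which is neither. Of the 14, 3 rose and 1 fell, or 28.6% beside 44.2% of all genes, with a median log2 fold change of 0.02. Uchl5 rose by 0.35, Usp15, which opposes SMURF proteins at the TGF-beta receptor, by 0.20 and Akt1 by 0.20 on the log2 scale. Tnfaip3, which encodes the NF-kB inhibitor that works with Itch, fell from 24.7 ± 1.94 to 18.1 ± 0.527 CPM (SD, n = 3, edgeR adjusted p = 9.9e-05). Sgk1, the kinase gene whose product inhibits Nedd4l, was named after its values were seen and stood at 64.6 ± 2.65 and 62.3 ± 1.79 CPM (edgeR adjusted p = 0.477).

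**Figure D5:**
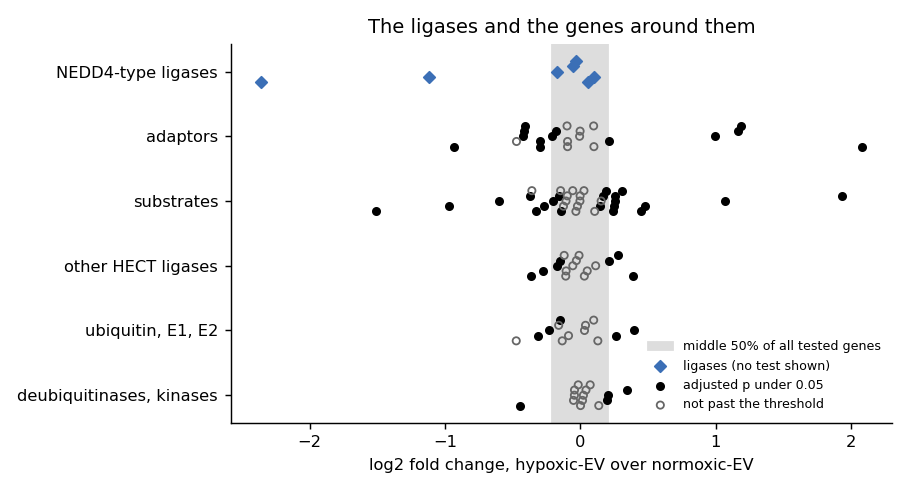
Log2 fold change of each tested gene in the ligase family (blue diamonds, no test shown) and the 5 related lists (filled circles past an adjusted p of 0.05, open circles not), with the middle 50% of all tested genes in grey, from -0.21 to 0.20. Vertical position within a row has no meaning. The adaptors and substrates reach further to both sides than the other HECT ligases, the ubiquitin and conjugating enzyme genes and the deubiquitinases and kinases. The lists differ in size and were chosen with earlier results of these data known, and this contrast was not tested.

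The 4 tested genes most like Hecw2 across the 6 libraries were Clec4a2, Il23a, Traf1 and 4930438A08Rik. Likeness was the root mean square difference of log2 CPM after each gene's mean was taken off, and it was 0.137, 0.157, 0.204 and 0.218 for these genes. A small constant was added to each CPM before the log. It shrinks the differences of genes with few counts, so the distances depend on it. Clec4a2, a C-type lectin receptor gene, stood at 30.0 ± 2.29 and 6.66 ± 0.664 CPM, and Il23a, a subunit gene of interleukin 23, at 37.8 ± 1.67 and 6.49 ± 0.569 CPM (SD, n = 3). Traf1, a signalling adaptor gene, stood at 64.4 ± 3.87 and 17.5 ± 1.49 CPM. With 2 groups, this measure mostly follows the size of the difference between them.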

How the data were processed

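Per the labels' protocols, poly(A) RNA of 6 samples was made into TruSeq libraries and read in pairs. HISAT2, featureCounts, DESeq2 and the build GRCm39 are named in the submitters' processing notes; their versions, the annotation, the strand setting and how multi-mapping reads were handled were not given in the sources used here. Deposited by the authors were whole-number gene counts, FPKM values, a table of normalized counts (a signal equal to the counts divided by 1 size factor per library, within a relative tolerance of 1e-06) and a table of 462 genes with log2 fold changes, a test score, p-values and adjusted p-values. Normalized counts were not used further.

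Counts entered edgeR 4.0.16 under R 4.3.3 (filterByExpr with a minimum count of 10 and a total of 15, TMM, quasi-likelihood F-test, two-sided, Benjamini-Hochberg adjustment over 13303 genes). SE is the log2 fold change divided by the square root of F. The script was tested on simulated data. The members and lists were chosen with earlier results of these data known. Of 117 symbols in the members and related lists, 1 (Spart, as Spg20) matched by synonym. Named were all members, every adaptor past the threshold, the genes of the 6 smallest adjusted p among those past it in each other list, and the 4 genes most like Hecw2. Alternatives were DESeq2 size factors, upper-quartile factors, the DESeq2 1.42.0 Wald test, no filter, a replicate block and leaving out each library. Library pairs of a group gave a chi-square per degree of freedom from 2.72 to 5.84, so none was a copy. No per-sample column was left out.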

Additional observations from a re-analysis of the deposited data

How the results depend on the processing

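Of 210 alternative values of 20 results, 206 stayed within the spread between replicates (fold changes of members) or within 1.5 times the count reported. For the members, leaving out 1 of 3 libraries moves a group mean by less than this spread almost by arithmetic. Changes of scaling shift all genes by nearly the same small amount. The 206 is therefore a description and not a test of stability. Hecw2 ran from -2.43 to -2.29 and Nedd4l from -1.18 to -1.09 on the log2 scale over the 11 alternatives, and Wwp1 from -0.08 to 0.01, so its sign has no meaning. Without single libraries, the ubiquitin, activating and conjugating enzyme genes called higher numbered between 1 and 2, the former without normoxic-EV replicate 1 or 3 or hypoxic-EV replicate 2. With CPM in place of FPKM, 1 of 21 pairs of members changed order, Hecw2 and Nedd4l, whose means over 6 libraries were 0.909 and 0.766 FPKM and 11.8 and 14.9 CPM. For this pair the order depended on the unit in normoxic-EV (1.52 and 1.05 FPKM, 19.7 and 20.4 CPM) and not in hypoxic-EV (0.295 and 0.482 FPKM, 3.82 and 9.36 CPM). No pairing by replicate number was seen: deviations of libraries of the same number correlated at -0.02, -0.03 and -0.02 for replicates 1 to 3. Libraries of different numbers correlated at between -0.06 and 0.08. With 3 libraries per group, such values cannot show whether the samples were paired. With a replicate block, 2910 genes were called higher and 2752 lower in place of 3023 and 2854. Depth limits Nedd4 and Hecw1, for which a few counts decide the value.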
